A study of Mus musculus with 6 samples.

Results

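The genes described here are 10 genes of transforming growth factor beta (TGF-beta) signalling in mouse fibroblasts. They comprise the ligand genes Tgfb1, Tgfb2 and Tgfb3, the activin subunit gene Inhba, the matrix gene Ltbp2, the receptor genes Tgfbr1, Tgfbr2 and Tgfbr3, and the feedback genes Smad7 and Skil. They were taken as a list of names, and their probes were found by the RefSeq transcript identifier that the array files give for each probe. The list covered 10 of the 44702 genes or unnamed transcripts on the array and 17 of its 56570 probes. All 10 genes and all 17 probes were bright enough to be tested.

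The samples were NIH3T3 cells, an established mouse embryonic fibroblast line, measured on 6 Agilent 1-colour arrays. Cells had been infected with a pCX4bsr retroviral vector that expresses GGCT (gamma-glutamylcyclotransferase, an enzyme of glutathione breakdown; GGCT-OE in the labels) or with the control vector (empty in the labels), 3 arrays each, with replicate numbers 1 to 3. Both groups were grown in 2% serum. The labels do not say whether the infected populations were established anew for each replicate, so p-values measure the spread between these samples, which may be technical. Neither the promoter that drives GGCT nor the species of its coding sequence is given in the sources used here. The mouse Ggct probe stood at -0.57, -0.72 and -0.66 on control arrays 1 to 3 and at -0.14, 0.20 and -0.16 on the GGCT arrays, as log2 signal relative to the 75th percentile of each array, with no overlap. The difference was 0.62 ± 0.12 (SE, limma adjusted p = 0.0111), or 1.53-fold, and whether this probe reads the introduced sequence is not known here. The call on Ggct was lost without both arrays of replicate 2 (0.47, adjusted p = 0.0755) or of replicate 3 (0.67, adjusted p = 0.108).

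TGF-beta ligands are secreted in a latent form, held in the matrix by latent TGF-beta binding proteins, and are released by integrins and proteases. The active ligand brings together the receptors encoded by Tgfbr2 and Tgfbr1, which phosphorylate the proteins SMAD2 and SMAD3, and these enter the nucleus with SMAD4. Fibroblasts respond with matrix, contractile and growth-control genes, and switch on inhibitors of the pathway as feedback.

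The ligand genes went apart with GGCT. Tgfb2 was 7.69-fold lower and Ltbp2 3.29-fold lower, whereas Inhba was 2.86-fold higher and Tgfb3 1.58-fold higher. The receptor gene Tgfbr1 was 1.35-fold lower. The other 5 genes, Tgfb1, Tgfbr2, Tgfbr3, Smad7 and Skil, had differences of 1.23-fold or less that did not pass the test. In a limma fit with the replicate number as a block, Smad7 (adjusted p = 0.0317) and Skil (adjusted p = 0.0222) did pass. A gene is called here if its Benjamini-Hochberg adjusted p over all 23774 genes tested was under 0.05 in limma, without a block. By this rule 2 of the 10 genes were higher and 3 lower, while over all genes tested 17.5% were higher, 17.3% lower and 34.8% called in either direction. With so broad a response the count alone does not set these genes apart, and the values below are given gene by gene.

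Promoter sequence is shown for the 3 genes that moved most and for Tgfb1, the related ligand gene whose difference did not pass the test. Each sequence is the 250 bases before the annotated start, 5′ to 3′ on the gene's own strand, from RefSeq on build GRCm38.p6. Promoter windows were read for 6 of the 10 genes (Tgfb1, Tgfb2, Inhba, Ltbp2, Tgfbr1 and Tgfbr2), and not for Tgfb3, Tgfbr3, Smad7 and Skil. Capitals mark every match to a searched motif on either strand.
Tgfb2, chr1:186705990-186706239, minus strand: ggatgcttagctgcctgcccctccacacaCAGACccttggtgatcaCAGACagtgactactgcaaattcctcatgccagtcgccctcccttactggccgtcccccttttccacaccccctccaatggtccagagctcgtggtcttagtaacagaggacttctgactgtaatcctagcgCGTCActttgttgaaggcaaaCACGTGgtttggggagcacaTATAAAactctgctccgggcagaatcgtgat
Tgfb1, chr7:25686752-25687001, plus strand: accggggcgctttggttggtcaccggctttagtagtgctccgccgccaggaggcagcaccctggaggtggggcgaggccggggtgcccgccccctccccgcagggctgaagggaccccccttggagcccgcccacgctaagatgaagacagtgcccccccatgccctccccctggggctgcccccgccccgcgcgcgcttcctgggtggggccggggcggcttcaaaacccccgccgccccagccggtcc
Inhba, chr13:16011601-16011850, plus strand: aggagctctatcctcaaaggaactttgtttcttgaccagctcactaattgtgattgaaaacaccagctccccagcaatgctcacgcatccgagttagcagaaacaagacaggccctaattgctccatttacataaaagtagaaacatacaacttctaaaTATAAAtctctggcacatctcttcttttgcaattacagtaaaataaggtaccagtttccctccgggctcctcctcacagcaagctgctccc
Ltbp2, chr12:84876492-84876741, minus strand: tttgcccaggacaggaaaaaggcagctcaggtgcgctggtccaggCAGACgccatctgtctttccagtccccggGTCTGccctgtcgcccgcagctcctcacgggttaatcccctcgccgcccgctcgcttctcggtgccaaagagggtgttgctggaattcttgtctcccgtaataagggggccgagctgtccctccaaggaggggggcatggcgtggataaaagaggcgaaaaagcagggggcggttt

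The Tgfb2 window held TATAAA at positions -31 to -26 before the start, the E-box CACGTG at -51 to -46, and the core of a cyclic AMP response element, TGACG, at -72 to -68 on the opposite strand. These letters occur in 12.4%, 6.02% and 17.8% of the 32851 windows of the same length. TATAAA was also found in the Inhba window, at -91 to -86. The short motif CAGAC, which SMAD proteins can bind, occurred 2 times each in the Tgfb2 and Ltbp2 windows. It occurred 1 time each in a window of Tgfbr1 and in that of Tgfbr2, and is held by 42.2% of all windows. The Tgfb1 window matched none of the motifs searched and was 75.2% G or C, against 53.6% for Tgfb2, 61.6% for Ltbp2, 43.2% for Inhba and a median of 52.4% over all windows. None of the windows of the 6 genes held the SMAD palindrome GTCTAGAC (0.167% of all windows), the full response element TGACGTCA (1.55%, which contains TGACG), the AP-1 site TGANTCA (6.75%) or the GLI site GACCACCCA (0.225%). The TATA, E-box and response element letters named first were added to the search after the sequences had been seen, and all matches are descriptions of letters, not of bound sites.

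**Figure D1:**
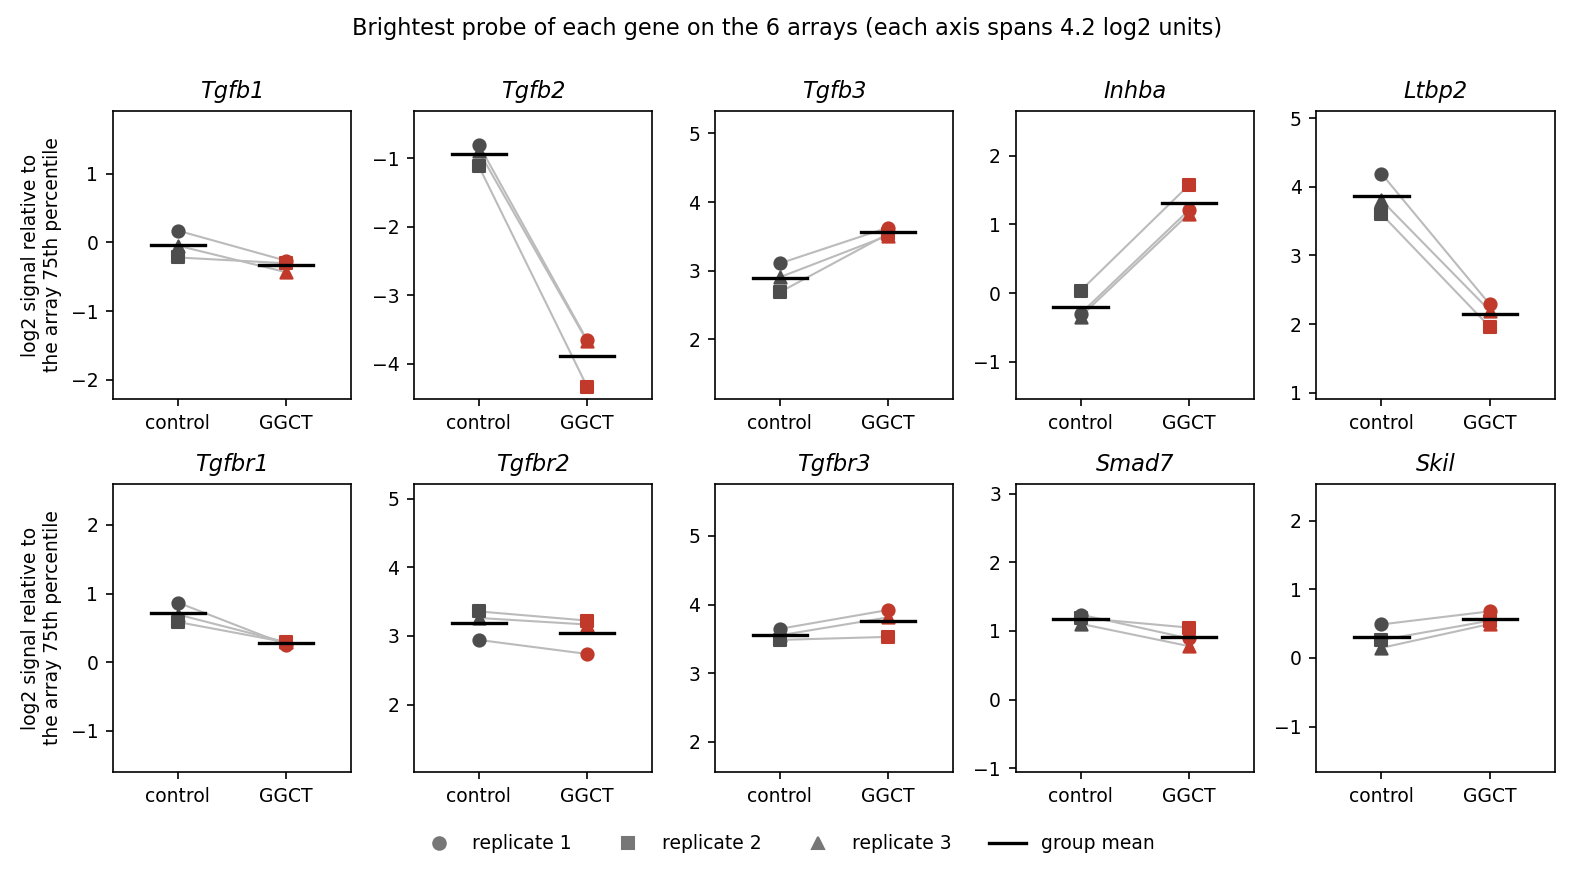
Signal of the brightest probe of each gene on the 6 arrays, in log2 units from the 75th percentile of that array (vertical axis), in control and GGCT cells. Symbols give the replicate number, grey lines join arrays of the same number and black bars are group means (n = 3). Tgfb2 and Ltbp2 drop and Inhba rises for each replicate number by more than the spread within either group, and the groups overlap for Tgfbr2 and Tgfbr3.

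Tgfb2 encodes the TGF-beta ligand that needs the co-receptor betaglycan for efficient receptor binding. Its brightest probe stood at -0.80, -1.12 and -0.90 on control arrays 1 to 3 and at -3.65, -4.33 and -3.67 on the GGCT arrays on the same log2 scale. The groups did not overlap, and GGCT array 2 was the lowest of the 6. In scanner units this was 218, 196 and 230 in control cells and 32.4, 22.9 and 37.0 with GGCT. All 6 arrays still read this probe above background. The mean difference was -2.94 ± 0.21 (SE, adjusted p = 0.000299), and 1.25% of the genes tested had a larger one in either direction. It was -2.85 between the arrays of replicate 1, -3.21 for replicate 2 and -2.77 for replicate 3. A second Tgfb2 probe, for another transcript record, went from -2.01 ± 0.16 to -5.17 ± 0.56 (SD, n = 3 each) and was well above background on all 3 control arrays but on 1 GGCT array. With normexp background correction, which adds an offset and so shrinks differences between low signals, the brightest probe differed by -1.59 (adjusted p = 0.000129) and the second by -1.25.

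Tgfb3, the third ligand gene of the family, moved the other way. It stood at 3.11, 2.69 and 2.90 in control cells and at 3.63, 3.54 and 3.51 with GGCT, so that the lowest GGCT array lay above the highest control array. The difference was 0.66 ± 0.12 (SE, adjusted p = 0.00938). The call was lost on leaving out replicate 2 of both groups (0.57, adjusted p = 0.0778) or replicate 3 of both groups (0.69, adjusted p = 0.121).

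Tgfb1, whose product is the ligand most often studied in fibrosis, stood at 0.17, -0.22 and -0.05 in control cells and at -0.27, -0.30 and -0.43 with GGCT. The groups lay apart by less than the range of the control arrays. The difference of -0.30 ± 0.12 (SE, 95% interval -0.60 to -0.01) had an unadjusted p of 0.0469 and an adjusted p of 0.106. Blocking on the slide (adjusted p = 0.0314) and array weights (adjusted p = 0.0176) took it past the threshold. The second Tgfb1 probe differed by -0.25, and its groups overlapped.

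Inhba encodes the inhibin beta A chain, a pair of which forms activin A, a TGF-beta family ligand that also signals through SMAD2 and SMAD3. Its brightest probe was at -0.30, 0.03 and -0.34 in control cells and at 1.21, 1.57 and 1.15 with GGCT. Array 2 was the highest in both groups, and the 3 same-numbered differences were 1.51, 1.54 and 1.50. The mean difference was 1.52 ± 0.16 (SE, adjusted p = 0.00121). A second, dimmer Inhba probe rose as well, by 1.39 ± 0.27, and was not well above background on 1 of the 3 control arrays. With normexp background the brightest probe differed by 1.32 and the dim one by 0.37.

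Ltbp2 belongs to the latent TGF-beta binding proteins by sequence, but its product binds fibrillin microfibrils rather than latent TGF-beta. It was measured at 4.19, 3.60 and 3.80 in control cells and at 2.29, 1.96 and 2.19 with GGCT, with no overlap and with array 1 the highest of each group. The difference was -1.72 ± 0.18 (SE, adjusted p = 0.00109), at -1.91 for replicate 1, -1.64 for replicate 2 and -1.61 for replicate 3. Tgfb2, Inhba and Ltbp2 kept their direction and their call in all 21 alternative analyses, where their adjusted p reached at most 0.0158, 0.0348 and 0.0391.

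Tgfbr1 encodes the type I receptor kinase that phosphorylates SMAD2 and SMAD3. It stood at 0.87, 0.59 and 0.69 in control cells and at 0.26, 0.29 and 0.29 with GGCT, with the GGCT arrays close together and below every control array. The difference was -0.44 ± 0.10 (SE, adjusted p = 0.0170). A dimmer Tgfbr1 probe differed by -0.40 ± 0.22 with overlapping groups. The call on Tgfbr1 was lost without control replicate 3 (-0.45, adjusted p = 0.0630) and without GGCT replicate 3 (-0.44, adjusted p = 0.0599). It was also lost without both arrays of replicate 2 (-0.51, adjusted p = 0.0800) or of replicate 3 (-0.45, adjusted p = 0.179), with the mean of its probes (-0.42, adjusted p = 0.0743) and when dim probes were kept in the test (adjusted p = 0.0807).

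Tgfbr2 encodes the type II receptor, which binds the ligand and activates the type I receptor. It was at 2.94, 3.36 and 3.26 in control cells and at 2.74, 3.22 and 3.17 with GGCT. Array 1 was the lowest in both groups and the groups overlapped. The difference was -0.14 ± 0.17 (SE, adjusted p = 0.575), with a 95% interval from -0.57 to 0.28. Tgfbr3 encodes betaglycan, the co-receptor that presents ligand to the type II receptor. Its values were 3.65, 3.48 and 3.55 in control cells and 3.92, 3.53 and 3.81 with GGCT, and GGCT array 2 lay within the control range. The difference of 0.19 ± 0.12 (SE, adjusted p = 0.281) had an interval from -0.11 to 0.49. Without GGCT replicate 1 the Tgfbr2 difference was 0.0082 (adjusted p = 0.972). Neither receptor gene passed the test. In the blocked fit the errors were smaller, ± 0.05 for Tgfbr2 and ± 0.07 for Tgfbr3, and neither passed there (adjusted p = 0.0889 and 0.0875). The same-numbered differences had one sign for each gene, at -0.20, -0.13 and -0.10 for Tgfbr2 and 0.27, 0.04 and 0.26 for Tgfbr3.

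Smad7 encodes an inhibitory SMAD that blocks the type I receptor and brings ubiquitin ligases to it. It stood at 1.24, 1.19 and 1.10 in control cells and at 0.89, 1.05 and 0.78 with GGCT. The groups did not overlap, but the gap between them was smaller than the range of the GGCT arrays. The difference was -0.27 ± 0.10 (SE, adjusted p = 0.0829) and was called once replicate numbers were blocked (± 0.07, adjusted p = 0.0317). A second Smad7 probe differed by -0.24 (adjusted p = 0.156 over all probes, and 0.0319 with the block).

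Skil encodes SnoN, a co-repressor that binds SMADs and is itself a TGF-beta target. Its brightest probe stood at 0.49, 0.26 and 0.15 in control cells and at 0.68, 0.54 and 0.50 with GGCT, so that GGCT array 3 lay just above control array 1 and the groups barely did not overlap. The difference was 0.27 ± 0.12 (SE, adjusted p = 0.122) and passed with the block (± 0.06, adjusted p = 0.0222). The feedback genes thus had small differences of opposite sign, neither called in the unblocked test and both called in the blocked one. Array weights also called both (adjusted p = 0.0167 for Smad7 and 0.0149 for Skil), normexp background called Smad7 (0.0399), and blocking on the slide called Skil (0.0173) but not Smad7 (0.0524). Skil was called on slide 2 alone as well (0.0485). The other 2 Skil probes, annotated to other transcript records, differed by 0.05 and 0.66. The latter value came largely from GGCT array 2, at -1.82, where GGCT arrays 1 and 3 stood at -3.52 and -3.23 and the control arrays between -3.72 and -3.21.

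**Figure D2:**
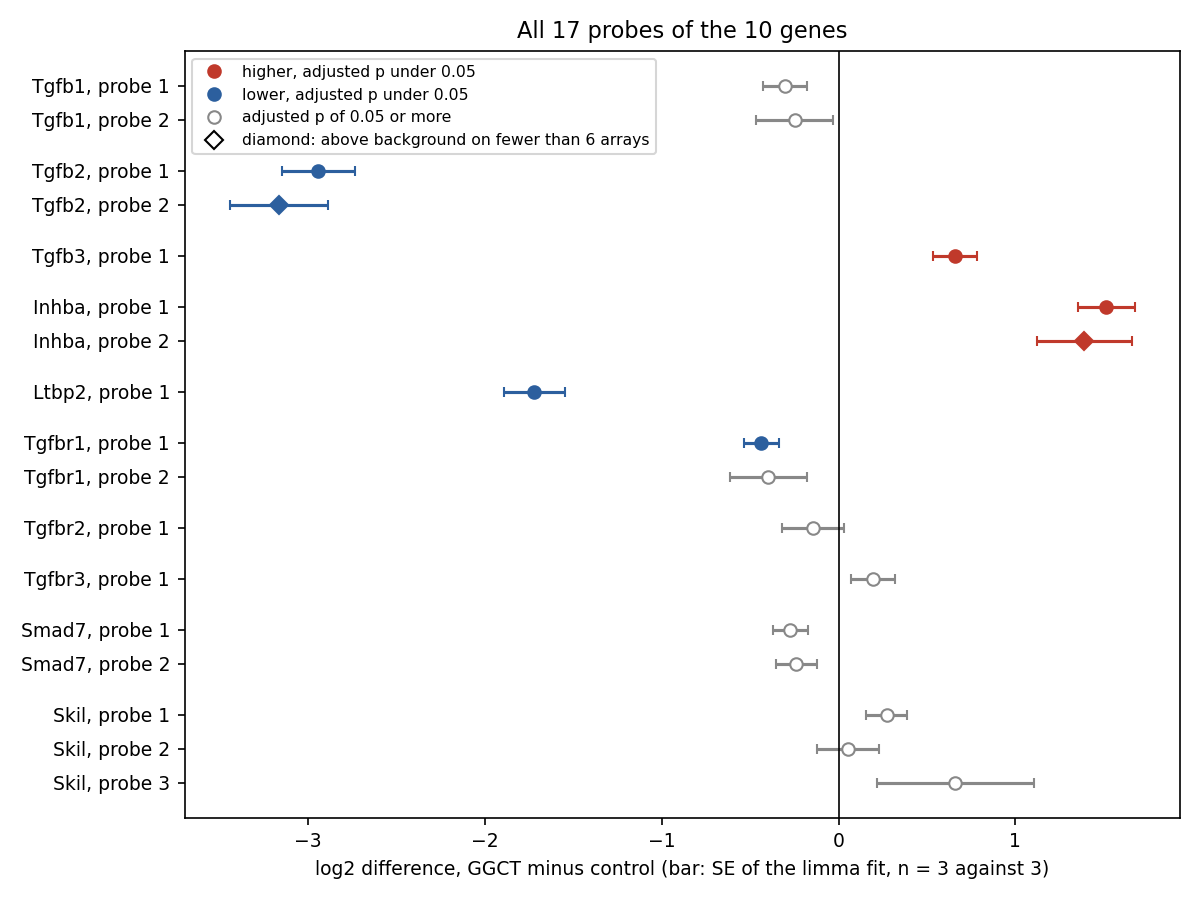
Log2 difference, GGCT minus control, of every probe of the 10 genes, with the SE of the limma fit over all probes (n = 3 against 3 arrays). Filled symbols passed an adjusted p of 0.05, and diamonds mark the 2 probes that were above background on fewer than 6 arrays. The probes of Tgfb2 lie at -2.94 and -3.16 and those of Inhba at 1.52 and 1.39, while the 3 Skil probes spread from 0.05 to 0.66.

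Over all probes tested one by one, 3 of the 17 probes were called higher and 4 lower, against 17.7% and 17.5% of all probes, or 35.2% in either direction. Probes of 1 gene share a transcript or a set of transcripts and are not replicates. In 16 of 17 probes the 3 same-numbered differences had one sign, the exception being the Skil probe with a difference of 0.05. The share of all probes with one sign was not counted, so this number is not read as a trait of these genes. Control and GGCT values were fully apart for 8 of the 10 genes and 10 of the 17 probes, against 49.3% of all genes and 49.7% of all probes tested. Each of these 8 genes had an exact 2-sided permutation p of 0.1, below which a comparison of 3 with 3 arrays cannot go. With the replicate number as a block, 3 of the 10 genes were higher and 4 lower, and of all genes 27.3% were higher, 26.1% lower and 53.4% either. The median difference of the 10 genes was -0.21, against 0.02 over all genes tested, and the median size regardless of sign was 0.37 against 0.29. In bulk RNA, fewer cells that express a gene and less RNA per cell cannot be told apart. Signals of different probes are not compared, since probes differ in their response.

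By the distance between profiles over the 6 arrays, each centred on its own mean, the named genes most like Tgfb2 were Gpc6, Phyhd1, Slc1a3, Lrrn3 and Catspere2. Gpc6, a glypican of the cell surface, was at a root mean square distance of 0.0838 log2 units, followed by Phyhd1 at 0.108, the glutamate transporter gene Slc1a3 at 0.109, Lrrn3 at 0.126 and Catspere2 at 0.138. Gpc6 stood at -0.83, -1.19 and -0.96 in control cells and at -3.72, -4.47 and -3.95 with GGCT. As for Tgfb2, array 2 was the lowest of each group. For Catspere2, no GGCT array was well above background, so its distance and its place in this order rest on background signal.

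The wider pathway was read from 6 lists of other genes, of which 80 were tested, with 17 called higher and 33 lower, against 17.5% and 17.3% of all genes. These lists were chosen with earlier results of these data known, so the counts are descriptions and no test. Dropping number 2 from both groups left 4 higher and 12 lower, and dropping number 3 left 4 and 9. Without GGCT replicate 3 there were 11 higher, and without control replicate 3 there were 22 lower. Some genes, Fst and Itgb8 among them, entered the test on their control arrays alone. When only genes well above background on all 6 arrays were tested, 17 pathway genes were higher and 29 lower. Over all genes that filter gave 3862 higher and 3679 lower. Among 7 tested genes for other ligands and for proteins that trap ligands, 2 were higher and 2 lower (list median 0.22; 17.5% and 17.3% over all genes). Fst, which encodes the activin-binding inhibitor follistatin, fell by 2.52 ± 0.12 on the log2 scale (adjusted p = 7.44e-05), from -2.14 ± 0.10 to -4.67 ± 0.18 (SD, n = 3 each). It was well above background on 2 of the 3 GGCT arrays, and its difference was -1.06 with normexp background. Inha, the inhibin alpha chain gene, fell by 0.56 ± 0.08 (adjusted p = 0.00399). Fstl3, the gene of another activin-binding inhibitor and outside the naming rule, went the other way, with a difference of 0.22 ± 0.08 (adjusted p = 0.0841, and 0.0307 in the blocked fit). Gdf11, a ligand of the activin receptors, rose by 1.14 ± 0.17 (adjusted p = 0.00377, and 0.37 with normexp background), and Dcn, the gene of the TGF-beta-binding proteoglycan decorin, rose by 0.46 ± 0.07 (adjusted p = 0.00567). Dropping number 2 from both groups ended the calls on Inha (adjusted p = 0.0700), Gdf11 (0.0672) and Dcn (0.0787), and dropping number 3 those on Inha (0.0742) and Dcn (0.119).

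Genes that store or release latent TGF-beta went in both directions. Of 15 tested, 4 were higher and 6 lower (list median -0.16; 17.5% and 17.3% over all genes). The counts were 1 and 3 without number 2 of both groups, and 1 and 2 without number 3. The membrane protease gene Mmp14 fell by 1.45 ± 0.09 (adjusted p = 0.000208), the integrin gene Itgb5 by 0.98 ± 0.08 (adjusted p = 0.000513) and the integrin gene Itgb3 by 0.77 ± 0.10 (adjusted p = 0.00269). Another Itgb3 probe differed by 0.51, and with the mean of its probes the gene differed by -0.13 (adjusted p = 0.617). Thbs1, whose product thrombospondin can release active TGF-beta, rose by 1.19 ± 0.11 (adjusted p = 0.000671). Outside the rule for named genes, and chosen after their values were seen, the latent binding protein genes Ltbp1 (0.50 ± 0.09, adjusted p = 0.00944) and Ltbp4 (0.67 ± 0.12, adjusted p = 0.00696) rose where Ltbp2 fell. The 3 Ltbp4 probes differed by 0.12, 0.67 and 0.84. Both calls were lost without number 2 (adjusted p = 0.106 and 0.0612) or number 3 (0.143 and 0.0747) of both groups, as was that on Itgb3 without number 3 (0.0795).

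Other receptor genes were called lower in 3 of 8 cases and higher in 0 by limma (list median -0.05; 17.3% lower and 17.5% higher over all genes), with 1 higher at an unadjusted p under 0.05 and 2 higher with the replicate number as a block. Acvr1, a type I receptor gene, fell by 0.54 ± 0.09 (adjusted p = 0.00557), Eng, which encodes the co-receptor endoglin, by 0.54 ± 0.15 (adjusted p = 0.0333) and Tgfbrap1, for a receptor-associated protein, by 0.27 ± 0.08 (adjusted p = 0.0346). The call on Acvr1 was lost without number 2 (adjusted p = 0.0675) or number 3 (0.119) of both groups. Leaving out single arrays ended the calls on Eng and Tgfbrap1. For Eng this happened without control replicate 1 (-0.40, adjusted p = 0.0563), control replicate 2 (-0.61, 0.0586), control replicate 3 (-0.61, 0.0634), GGCT replicate 2 (-0.47, 0.0993) and GGCT replicate 3 (-0.54, 0.0969), and with normexp background (-0.25, 0.122). For Tgfbrap1 it happened with each of the 6 arrays left out, at an adjusted p between 0.0576 and 0.141. The type II receptor gene Acvr2b, chosen after its value was seen, differed by 0.52 ± 0.21 (adjusted p = 0.103), and by the blocked fit was called higher (adjusted p = 0.00322).

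The SMAD list held 9 tested genes, with 2 lower and 0 higher by limma (list median 0.03; 17.3% and 17.5% over all genes), 1 higher at an unadjusted p under 0.05 and 1 higher with the replicate number as a block. Smad3, the receptor-activated SMAD gene, fell by 0.39 ± 0.08 (adjusted p = 0.0155), a call lost without control replicate 3 (-0.40, adjusted p = 0.0575) and without GGCT replicate 3 (-0.39, adjusted p = 0.0594). The co-activator gene Crebbp fell by 0.37 ± 0.11 (adjusted p = 0.0442), and this call was lost on leaving out any 1 array other than control replicate 1, at an adjusted p between 0.0980 and 0.131. In all, 12 of the 21 alternatives ended the call on Crebbp, quantile normalization (0.0858), a median shift (0.0641), normexp background (0.0777), no dim-probe filter (0.159) and the mean of its probes (0.0953) among them. Smad2 differed by 0.17 ± 0.15 (adjusted p = 0.428) and Smad4 by 0.16 ± 0.13 (adjusted p = 0.388).

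Among 16 tested genes of other pathway inhibitors and ubiquitin enzymes, 4 were higher and 5 lower (list median 0.04; 17.5% and 17.3% over all genes). With 1 array left out the higher count was 1 without control replicate 1, 2 or 3 or GGCT replicate 3 and 2 without GGCT replicate 1, and the lower count was 2 without control replicate 3 and 3 without control replicate 1 or 2 or GGCT replicate 3. Usp11, a deubiquitinase gene, fell by 1.33 ± 0.11 (adjusted p = 0.000455) and the related Usp4 by 0.44 ± 0.08 (adjusted p = 0.00666). Ski, the co-repressor gene most like Skil, fell by 0.46 ± 0.10 (adjusted p = 0.0168), a call lost without control replicate 2 (-0.45, adjusted p = 0.0606) and control replicate 3 (-0.42, adjusted p = 0.0742). Tgif2, which encodes a SMAD co-repressor, rose by 0.69 ± 0.10 (adjusted p = 0.00327). The calls on Usp4 and Tgif2 were lost without number 2 (adjusted p = 0.0902 and 0.0640) or number 3 (0.147 and 0.0762) of both groups.

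**Figure D3:**
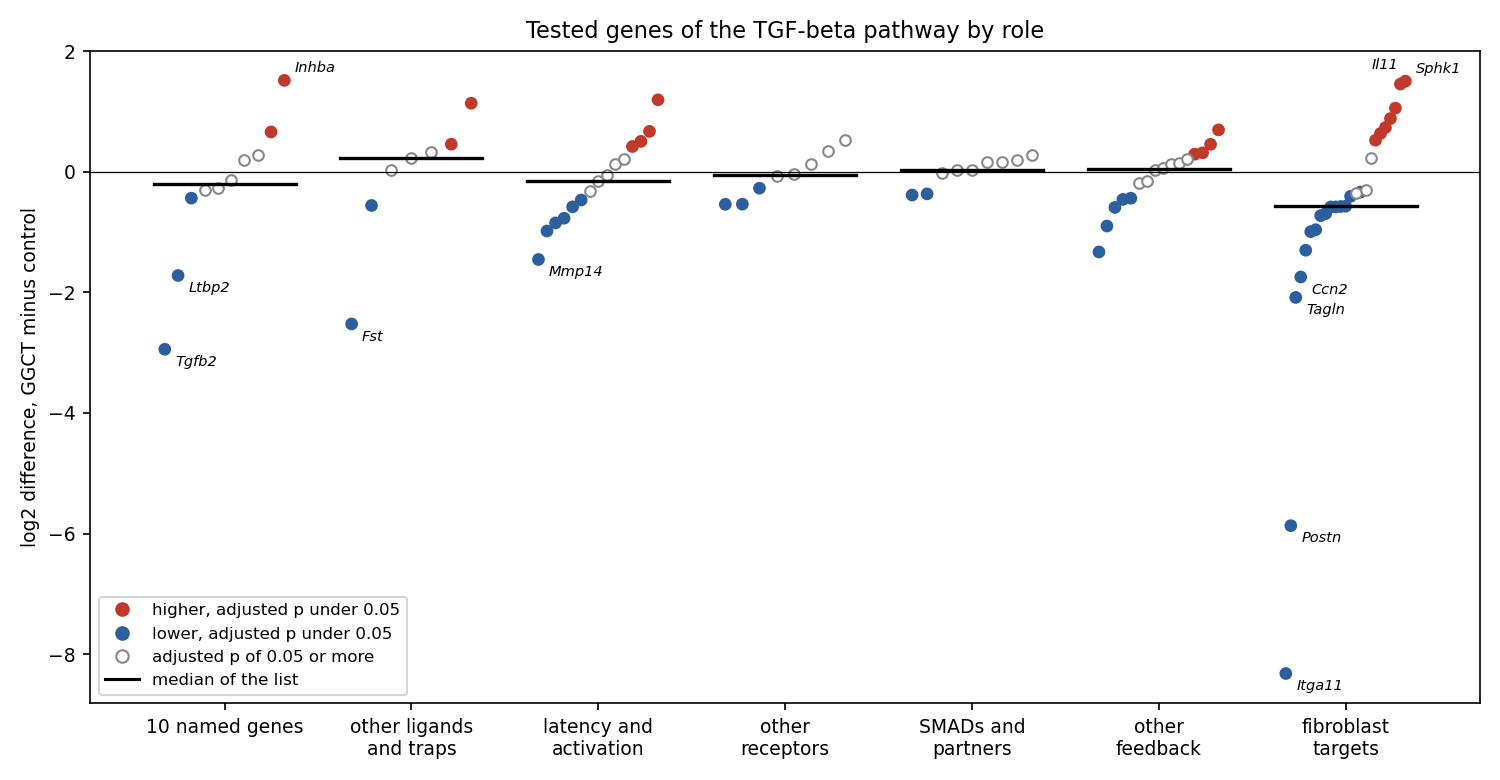
Log2 difference, GGCT minus control, of each tested gene of the TGF-beta pathway, grouped by role (1 point per gene, ordered by value within a list, black bars are list medians). Filled points passed an adjusted p of 0.05, and genes past 1.4 log2 units in either direction carry their names. The fibroblast target list has the lowest median, -0.57, and holds both the lowest points, Itga11 and Postn, and higher genes such as Il11 and Sphk1.

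Of 25 tested genes that TGF-beta is known to induce in fibroblasts, 15 were lower and 7 higher, against 17.3% and 17.5% of all genes, with a median of -0.57 against 0.02 over all genes. The list was chosen with earlier results of these data known, so these values describe it and are no test of the pathway. The counts were 7 lower and 3 higher without number 2 of both groups, and 5 and 2 without number 3. They were 13 lower and 7 higher when only genes well above background on all 6 arrays were tested. The integrin gene Itga11 was at least 74.95-fold lower with no GGCT array well above background, and its difference was -3.96 with normexp background, a smaller change than that bound. Postn, which encodes the matrix protein periostin, fell by 5.87 ± 0.47 (adjusted p = 0.000477), and the difference was -4.41 with normexp background. Tagln, an actin-binding protein gene of smooth muscle, fell by 2.08 ± 0.11 (adjusted p = 0.000101), whereas the cytokine gene Il11 rose by 1.45 ± 0.09 (adjusted p = 0.000161). Further members were chosen after their values were seen. Ccn2, the connective tissue growth factor gene, fell by 1.74 ± 0.18 (adjusted p = 0.00120), Col1a1, a collagen chain gene, fell by 0.99 ± 0.10 (adjusted p = 0.000869), and the sphingosine kinase gene Sphk1 rose by 1.50 ± 0.13 (adjusted p = 0.000684). The brightest Acta2 probe, for smooth muscle actin, differed by -0.41 (adjusted p = 0.0109) and its other 2 probes by -3.88 and -4.54. Why the probes differ was not tested.

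The 75th percentile was 380.0, 424 and 429 intensity units on control arrays 1 to 3 and 408, 461 and 471 on the GGCT arrays, higher with GGCT for each replicate number. The share of probes above background was 59.6% and 61.7% on the 2 arrays of slide 1 and 54.6% to 56.5% on slide 2. All 8 fibroblast markers were above background on all 6 arrays, and their summed level was 1967 to 2401 times the 75th percentile in control cells and 1522 to 1902 times with GGCT. They went in both directions, with 1 called higher and 3 lower, against 17.5% and 17.3% of all genes. With the replicate number as a block 1 was higher and 5 lower, against 27.3% and 26.1% of all genes. Of 7 epithelial markers, 2 were above background on all arrays and both rose, Krt8 by 1.18 and Cldn4 by 0.49. Krt8 was called in 19 of the 21 alternative analyses, with a difference as low as 0.57. Cldn4 was called in 14 of them, and its call was lost without control replicate 2 or 3 or GGCT replicate 2, among others. The summed level of the epithelial markers was 13.6 to 16.2 in control cells and 18.9 to 22.2 with GGCT. For Cdh1, Epcam and Cldn3 none of the 6 arrays was well above background. Of 6 endothelial markers, Cdh5 (at least 2.18-fold) and Pecam1 (0.43) rose and Vwf fell (at least 1.44-fold), at summed levels of 0.191 to 0.222 and 0.253 to 0.296, and for Kdr, Tek and Emcn none of the 6 arrays was well above background. The lowest log2 difference of Cdh5 among the alternative analyses was 0.41, a smaller change than its bound. Leukocyte (3 of 7), skeletal muscle (1 of 6), adipocyte (2 of 6) and neural (3 of 7) markers were above background on each of the 6 arrays, and Ptprc, Myog, Adipoq and Sox2 were above it on none. Of those tested, 1 of 4 leukocyte and 1 of 2 adipocyte markers were called lower and 1 of 3 neural markers higher. Over all genes 17.3% were lower and 17.5% higher. The summed leukocyte level was 23.9 to 32.6 in control cells and 23.5 to 29.2 with GGCT. The part of these shifts in the results on the 10 genes was not tested.

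**Figure D4:**
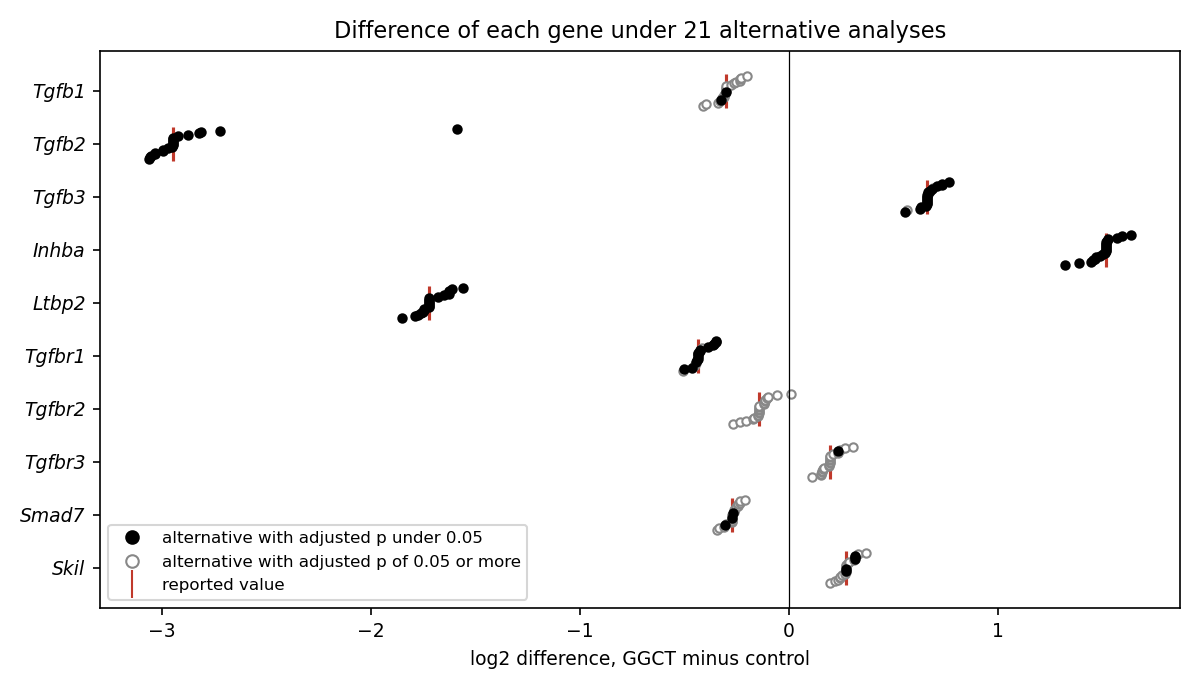
Log2 difference, GGCT minus control, of each gene under 21 alternative analyses (1 point each, filled where the adjusted p was under 0.05) with the reported value as a red tick. The brightest probe stands for the gene except in the alternative that took the mean of a gene's probes. Tgfb2, Inhba and Ltbp2 are filled throughout, and the Tgfb2 point at -1.59 is the one with normexp background. The Tgfbr2 values reach across 0.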

How the data were processed

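Cy3-labelled cRNA was prepared from total RNA, per the labels' protocols. Per the file headers, the authors obtained spot intensity values from Agilent Feature Extraction (version 12.1.0.3); the processed signal was used. Control and outlier-flagged spots were left out (3671 per array and 578 over the 6 arrays), and no spot was saturated. The log2 intensity of each probe was set relative to the array's 75th percentile. Transcript identifiers were looked up in RefSeq genes of GRCm38.p6, and this named 60.99% of the probes.

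The brightest probe stood for a gene, which entered the test where all 3 arrays of either group read that probe above background. This kept 23774 of 44702 genes. The comparison used lmFit and eBayes of limma 3.58.1 (R 4.3.3; 2-sided) and was tested on simulated data. A second fit used every probe (31110 tested). The deposited log2 values of the series table followed the scanner files (correlation 1) and served as an alternative. Bounds ("at least") divide the mean of the bright group by a ceiling for the dim one, taken on each array as its own value or the lowest value above background, whichever was higher.

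Replicate 1 of both groups was on slide 1, the others on slide 2. Same-numbered arrays deviated together (correlations 0.731, 0.453 and 0.358), so the numbers were taken to pair the samples; arrays of slide 2 with different numbers reached 0.299 and 0.342, so number and shared slide are hard to separate there, and blocked values are given where a call changed. The genes and lists were chosen with earlier results of these data known. Besides the 10 genes and Ggct, the text names up to 4 called genes of each pathway list by smallest p and the 5 genes nearest to Tgfb2 in profile.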

Additional observations from a re-analysis of the deposited data

How the results depend on the processing

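The 21 alternatives covered scaling, background, dim-probe filter, probe choice, variance model, array weights, replicate and slide blocks, slide 2 alone, the deposited values, and each array or replicate number left out; slide 2 alone equals leaving out number 1. Tgfb2, Inhba and Ltbp2 kept direction and call in all 21, Tgfb3 in 19 and Tgfbr1 in 15. Tgfb1 passed in 2, Smad7 in 3, Skil in 5, Tgfbr3 in 1 (array weights, adjusted p = 0.0485) and Tgfbr2 in 0 of them. Tgfbr2 changed sign without GGCT replicate 1 (0.0082, adjusted p = 0.972) and ranged down to -0.27, without control replicate 1; the cause was not tested. With no filter on dim probes 2218 genes were called higher and 2493 lower, of the pathway genes 10 and 20, and Ggct (0.62) had an adjusted p of 0.0504. With array weights the counts were 6633 and 6193, for the 10 genes 4 and 5, with 7 of their probes lower. With the replicate number as a block 6490 and 6195 genes were called, while blocking on the slide gave 6562 and 6191. The replicate block changed the calls of Smad7 and Skil and of no other of the 10 genes, and the slide block those of Tgfb1 and Skil. With single arrays or both arrays of a number left out, the genes called higher ranged from 692 to 4573 and lower from 1089 to 4539, those of the 10 genes from 1 to 3 and from 2 to 3, their probes from 1 to 4 and from 3 to 4, and the pathway genes from 4 to 18 and from 9 to 30. Ggct ranged from 0.47 to 0.71, and was not called on leaving out number 2 or number 3. The number of arrays and, for dim probes, the signal over background limit the precision.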
